A study of Mus musculus with 2 samples.

Results

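Tropomyosins are coiled-coil proteins that lie along actin filaments. The 4 mouse genes are Tpm1, Tpm2, Tpm3 and Tpm4, and they were taken as every annotated gene of those symbols in the deposited tables of transcript models. They were 4 of the 14451 annotated genes with at least 1 read, and they held 142 of 80416 transcript models in replicate 1 and 135 of 74962 in replicate 2. The series held 1 group of 2 long-read RNA libraries from gastrocnemius, a calf muscle of mostly fast fibres. Both came from female B6CASTF1/J mice, the first-generation cross of C57BL/6J and CAST/EiJ strains, aged 18 to 20 months and untreated as far as the labels say, and each started from 2 µg of RNA. Both libraries carry the same donor record and the same pair of animal identifiers, although they are numbered as separate biological replicates. The labels thus do not settle whether they came from separate animals. With 1 group, the libraries can only be compared with each other, and such a difference may be technical. All 9 fast fibre markers were detected in both libraries and together had 231299 and 274433 CPM, where CPM is the reads of a gene per 1000000 reads on annotated mouse genes.

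In striated muscle, 2 tropomyosin chains wind around each other and overlap end to end along the thin filament, where they block the myosin sites on actin until calcium binds troponin. Tpm1, Tpm2 and Tpm3 each make several proteins, while Tpm4 has 1 annotated coding transcript. A first exon 1a opens the long forms that build sarcomeres and smooth muscle filaments, whereas an internal promoter before exon 1b opens the short forms of the cytoskeleton. A mutually exclusive pair, 6a and 6b, codes part of the middle of the rod, and a choice among last exons 9a to 9d sets the tail that overlaps the next molecule and touches troponin T. The forms of the sarcomere join 1a, 6b and 9a. Tpm1 encodes the alpha chain of fast muscle, Tpm2 the beta chain and Tpm3 the alpha chain of slow fibres, while Tpm4 is known mainly for cytoskeletal filaments.

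The exon pair at position 6 is shown first, because it is an internal choice that the reads resolve in Tpm1, Tpm2 and Tpm3. Exons were read from the GENCODE M21 annotation on mm10. Capitals mark bases that differ from exon 6b of Tpm1.
Tpm1 exon 6b: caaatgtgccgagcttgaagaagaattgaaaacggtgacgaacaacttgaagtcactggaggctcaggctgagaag
Tpm2 exon 6b: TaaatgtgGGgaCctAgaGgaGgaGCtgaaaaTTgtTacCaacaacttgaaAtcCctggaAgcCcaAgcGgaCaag
Tpm3 exon 6b: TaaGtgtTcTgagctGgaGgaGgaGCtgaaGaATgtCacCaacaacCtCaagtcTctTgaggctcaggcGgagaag
Tpm4 exon 6: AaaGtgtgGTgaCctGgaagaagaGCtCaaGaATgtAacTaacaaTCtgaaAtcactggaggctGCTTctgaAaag
Tpm1 exon 6a: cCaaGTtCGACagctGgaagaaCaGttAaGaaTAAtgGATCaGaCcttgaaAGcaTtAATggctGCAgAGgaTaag
Tpm2 exon 6a: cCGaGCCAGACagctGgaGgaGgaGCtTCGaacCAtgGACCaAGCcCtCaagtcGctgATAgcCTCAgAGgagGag
Tpm3 exon 6a: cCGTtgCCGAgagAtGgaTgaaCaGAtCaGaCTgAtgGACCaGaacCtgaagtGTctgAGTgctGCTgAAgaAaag
All 7 exons are 76 bases long and lie in coding sequence. Exon 6b of Tpm1 is at chr9:67031951-67032026 on the minus strand and its exon 6a at chr9:67032466-67032541. The Tpm2 pair is at chr4:43518644-43518719 (6b) and chr4:43519003-43519078 (6a), also on the minus strand. The Tpm3 pair lies on the plus strand at chr3:90089048-90089123 (6b) and chr3:90088401-90088476 (6a). The only annotated exon 6 of Tpm4 is at chr8:72146452-72146527 on the plus strand. The 6b exons of Tpm1, Tpm2 and Tpm3 share 73.7% to 76.3% of their bases with each other. Within a gene, 6a and 6b share 56.6% of bases in Tpm1, 53.9% in Tpm2 and 51.3% in Tpm3, so that 33 to 37 of the 76 bases tell 6a from 6b. The exon of Tpm4 shares 71.1% to 73.7% with the 6b exons and 43.4% to 55.3% with the 6a exons.

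The coding ends separate the muscle tail from the other tail. Each line below runs from the start of the last coding exon to the stop codon, which is in capitals.
Tpm1 exon 9a: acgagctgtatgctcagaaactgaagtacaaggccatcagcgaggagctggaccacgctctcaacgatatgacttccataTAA
Tpm2 exon 9a: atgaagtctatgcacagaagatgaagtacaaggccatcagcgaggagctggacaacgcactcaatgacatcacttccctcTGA
Tpm3 exon 9a: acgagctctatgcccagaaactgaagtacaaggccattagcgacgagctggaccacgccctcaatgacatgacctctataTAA
Tpm1 exon 9d: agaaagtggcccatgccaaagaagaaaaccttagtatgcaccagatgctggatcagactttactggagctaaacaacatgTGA
Tpm2 exon 9d: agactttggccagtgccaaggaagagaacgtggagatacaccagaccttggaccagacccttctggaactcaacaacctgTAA
Tpm3 exon 9d: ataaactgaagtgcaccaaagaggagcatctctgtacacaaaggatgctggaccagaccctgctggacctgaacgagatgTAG
Tpm4 exon 9d: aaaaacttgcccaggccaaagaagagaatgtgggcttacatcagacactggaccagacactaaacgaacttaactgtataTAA
Each is 83 bases. In Tpm1 and Tpm3 exon 9a holds 79 of them and the last 4 come from exon 9b, while in Tpm2 the stop codon lies inside 9a. The 9a ends of Tpm1 and Tpm3 are 89.2% identical, and that of Tpm2 shares 81.9% and 80.7% with them. The 9a and 9d ends of the same gene share 43.4% of bases in Tpm1, 42.2% in Tpm2 and 45.8% in Tpm3. In mm10 these ends are at chr9:67029664-67029742, chr4:43515921-43516003 and chr3:90091013-90091091 for 9a of Tpm1, Tpm2 and Tpm3. The 9d ends of Tpm1, Tpm2, Tpm3 and Tpm4 are at chr9:67023359-67023441, chr4:43514779-43514861, chr3:90099528-90099610 and chr8:72151742-72151824.

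Replicate 1 held 1175829 reads and replicate 2 held 1017384, of which 1117891 and 975696 fell on annotated mouse genes. A count of 0 allows up to 3 reads, which is 2.68 CPM in replicate 1 and 3.07 CPM in replicate 2. A read stands for 1 molecule and was not divided by length, so levels of different genes also carry how well each length was captured. Across all tested genes the log2 ratio between the libraries, replicate 1 over 2, moved with length. Its median was 0.27 for genes whose leading isoform had 1000 to 1300 bases and -0.27 for those of 3000 bases or more.

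Tpm1 was the sixth most abundant gene of the muscle, and levels fell from it through Tpm2 and Tpm3 to Tpm4. Tpm1 (ENSMUSG00000032366.15, chr9:67022590-67049406, minus strand) had 25254 reads in replicate 1 and 13483 in replicate 2, which is 22591 and 13819 CPM. Its mean was 18205 ± 6203 CPM (SD, n = 2), rank 6 of all genes. Tpm2 (ENSMUSG00000028464.16, chr4:43514711-43523765, minus strand) had 1308 and 2314 reads, or 1170 and 2372 CPM, with a mean of 1771 ± 850 CPM (SD, n = 2) and rank 37. Replicate 1 was the higher library for Tpm1 and replicate 2 for Tpm2. Tpm3 (ENSMUSG00000027940.18, chr3:90072649-90100902, plus strand) had 146 and 596 reads, or 131 and 611 CPM, with a mean of 371 ± 340 CPM (SD, n = 2) and rank 249. Tpm4 (ENSMUSG00000031799.9, chr8:72134975-72153142, plus strand) had 32 and 27 reads, or 28.6 and 27.7 CPM, with a mean of 28.1 ± 0.674 CPM (SD, n = 2) and rank 3561. The order Tpm1, Tpm2, Tpm3, Tpm4 was the same in both libraries, and no neighbours in it had overlapping library values. Together the genes took 26740 reads (2.39%) in replicate 1 and 16420 (1.68%) in replicate 2.

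The libraries differed in their mix of tropomyosins. Tpm1 was 1.51-fold higher in replicate 1 (exact 95% interval 1.48 to 1.54), and its adjusted p in the 2-sided exact binomial test was too small to be stored as a number. Tpm2 was 2.20-fold higher in replicate 2 (2.05 to 2.35; exact binomial test, adjusted p = 4.32e-117) and Tpm3 5.06-fold higher there (4.22 to 6.11; exact binomial test, adjusted p = 8.80e-86). The level of Tpm4 did not pass the exact test, with a ratio of replicate 1 to replicate 2 of 0.955 and an interval of 0.554 to 1.66. Of the 4 genes, 3 were therefore called, where 980 of 8394 tested genes, 11.7%, were called in either direction. Tpm1 was 1 of 387 genes (4.61%) called higher in replicate 1, and Tpm2 and Tpm3 were 2 of 593 (7.06%) called higher in replicate 2. This test knows counting error only. In edgeR's exact test with the common dispersion of the 2 libraries taken as given, Tpm3 kept its call (log2 ratio -2.34, adjusted p = 0.0130), Tpm1 and Tpm2 did not (both adjusted p = 1), and 24 genes, 0.286%, were called. That dispersion was estimated from the same 2 libraries taken as 1 group, so it contains the differences under test. Calls kept or lost with it, here and below, are therefore no independent check. In whole muscle, fewer fibres of a type and less RNA per fibre cannot be told apart.

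Within the family, the share of Tpm1 was 94.4% in replicate 1 (Wilson 95% interval 94.2 to 94.7) and 82.1% in replicate 2 (81.5 to 82.7). The share of Tpm2 was 4.89% (4.64 to 5.16) and 14.1% (13.6 to 14.6). That of Tpm3 was 0.546% (0.465 to 0.642) and 3.63% (3.35 to 3.93). The intervals of each of these genes did not overlap between libraries, whereas those of Tpm4, at 0.120% (0.0848 to 0.169) and 0.164% (0.113 to 0.239), did.

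**Figure D1:**
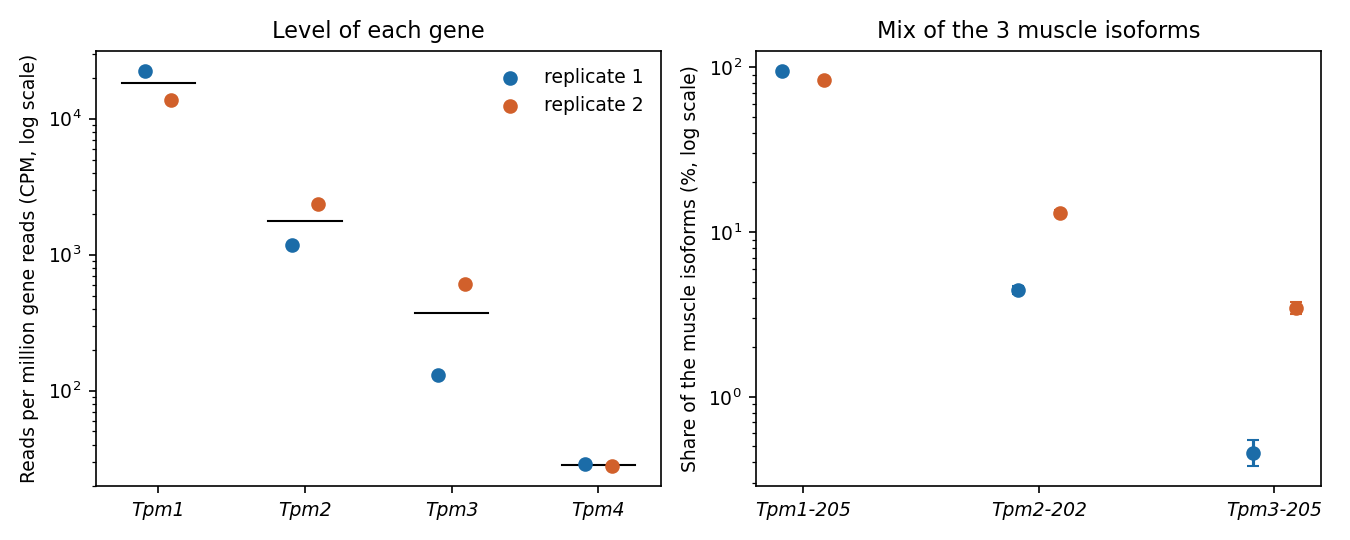
Left, CPM of each tropomyosin gene in replicate 1 (blue) and replicate 2 (orange) on a log scale, with a black line at the mean; right, share of each gene's muscle isoform among the reads of those 3 isoforms, in percent on a log scale, with Wilson 95% intervals. Tpm1-205 made up 95.1% of them in replicate 1 and 83.5% in replicate 2, while Tpm3-205 went from 0.454% to 3.47%.

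In each of the 3 striated muscle genes the leading isoform was the form with 1a, 6b and 9a. Of all reads of the gene, shortened and unannotated chains included, it held 95.3% in replicate 1 and 95.2% in replicate 2 for Tpm1, 85.9% and 86.2% for Tpm2, and 78.8% and 89.6% for Tpm3. Its share was higher among the reads on annotated isoforms alone. For Tpm1 the leading isoform was Tpm1-205, which joins 1a, 2b, 3, 4, 5, 6b, 7, 8, 9a and 9b in 1208 bases and codes 284 residues. It had 24067 of the 24095 reads on annotated Tpm1 isoforms in replicate 1 and 12841 of 12856 in replicate 2, 99.88% in both. For Tpm2 it was Tpm2-202, of 2098 bases and 284 residues, whose last exon is 9a. As annotated, that exon spans chr4:43514712-43516003 and so runs over exon 9d at chr4:43514711-43514861. Tpm2-202 took 1124 of 1131 reads (99.4%) and 1995 of 2000 (99.8%). For Tpm3 it was Tpm3-205, of 1139 bases and 284 residues, with 115 of 130 reads (88.5%) and 534 of 540 (98.9%). Tpm4 had a single isoform, the short cytoskeletal Tpm4-201 of 2128 bases and 248 residues, with all 32 and 27 reads.

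Taken against each other, the 3 muscle isoforms shifted between libraries as the genes did. Tpm1-205 held 95.1% of their summed reads in replicate 1 (24067 of 25306; Wilson interval 94.8 to 95.4) and 83.5% in replicate 2 (12841 of 15370; 83.0 to 84.1). Tpm2-202 held 4.44% (4.19 to 4.70) and 13.0% (12.5 to 13.5). The slow form Tpm3-205 held 0.454% (0.379 to 0.545) and 3.47% (3.20 to 3.78).

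**Figure D2:**
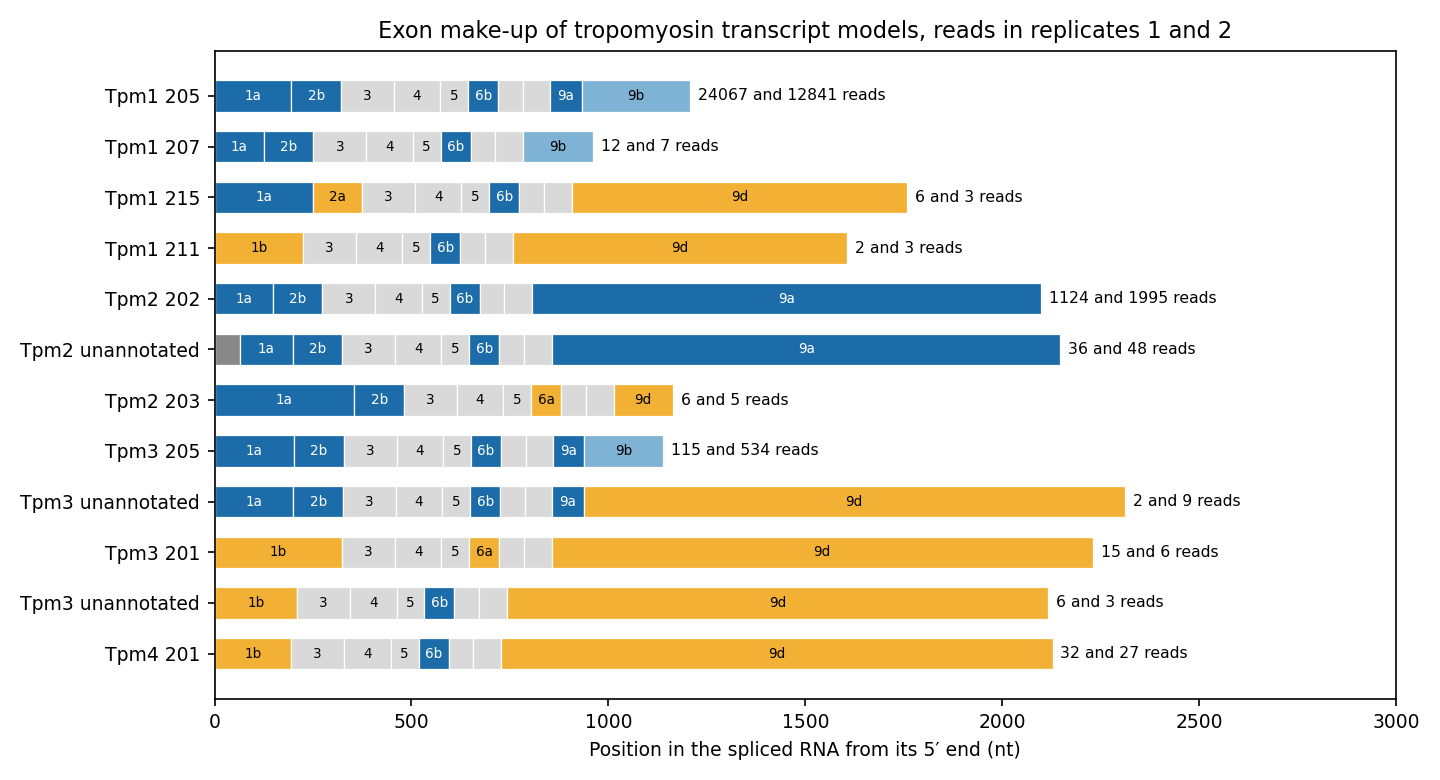
Exons of 12 tropomyosin transcript models drawn to scale along the spliced RNA in nt from the 5′ end, with reads in replicates 1 and 2 at the right. Blue marks exons of the striated muscle forms, light blue the last exon 9b, yellow the exons of other forms, dark grey the upstream leader exon of Tpm2 and light grey exons common to all forms. The exon 6 of Tpm4 is coloured as 6b, which it resembles. In Tpm1, Tpm2 and Tpm3 the all-blue form has the most reads in both libraries, from 115 in Tpm3-205 to 24067 in Tpm1-205 in replicate 1.

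The genes differed in how much of the other forms they carried. In Tpm1, exon 1a opened 24404 of 24406 reads that decide the first exon in replicate 1 and 13039 of 13043 in replicate 2. Exon 2b rather than 2a followed in 24383 of 24391 and 13033 of 13037 reads. Exon 6b alone was used in 24912 of 24915 and 13310 of 13310, the other 3 reads in replicate 1 holding 6a and 6b together. No deciding Tpm1 read held 6a alone, the choice of several non-muscle alpha tropomyosins. Exon 8 was joined to 9a in 24994 of 25050 reads (99.78%) and 13356 of 13386 (99.78%), to 9d in 9 and 7 reads, and to 9b directly in 14 and 7.

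Of the 1187 and 642 Tpm1 reads outside Tpm1-205, 28 in replicate 1 and 15 in replicate 2 lay on other annotated isoforms, and the rest on shortened, unannotated or unspliced models. Tpm1-207, which skips 9a and reads on into 9b for 287 codons, had 12 and 7 reads. The 4 further forms below are named here after their counts were seen. Tpm1-219, annotated as a processed transcript with 1a, 2b and 3, had 7 and 1 reads. Tpm1-215, the 1a, 2a, 6b and 9d form that is typical of smooth muscle, had 6 and 3 reads, or 5.37 and 3.07 CPM. The short Tpm1-211, which opens with 1b and ends with 9d, had 2 and 3 reads, and Tpm1-216, with 1a, 2b, 6b and 9d, had 1 and 1. These forms lie near the floor that 3 reads set. The smooth muscle and pericyte markers, a list of 10 genes, summed to 267 CPM in replicate 1 and 354 CPM in replicate 2, with none of the 10 at 0 in both, and 2 of 8 tested were higher in replicate 2, where 7.06% of all tested genes were. With a common dispersion in edgeR's exact test none of the 8 was called. Whether those cells supplied the Tpm1-215 reads was not tested.

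Tpm2 made the same choices, with a slightly lower share of 6b than Tpm1. Exon 6b was present in 1240 of 1248 deciding reads in replicate 1 (99.4%; Wilson interval 98.7 to 99.7) and in 2190 of 2196 in replicate 2 (99.7%; 99.4 to 99.9). Exon 9a followed exon 8 in 1264 of 1271 (99.4%; 98.87 to 99.73) and 2225 of 2233 (99.6%; 99.29 to 99.82). These intervals overlapped those of Tpm1, at 99.71 to 99.83 in replicate 1 and 99.68 to 99.84 in replicate 2. Tpm2-203, the form with 6a and 9d that smooth muscle and fibroblasts use, had 6 and 5 reads, or 5.37 and 5.12 CPM. On single molecules, 6a was joined to 9d in 6 and 5 reads and to 9a in 1 and 0, so that nearly all Tpm2 reads with 6a also had the other tail.

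Tpm3 was the gene whose isoform mix differed between the libraries. The short form Tpm3-201, which joins 1b, 6a and 9d, codes 248 residues in 2230 bases and serves the cytoskeleton, had 15 reads in replicate 1 and 6 in replicate 2. Its share of annotated Tpm3 reads was 11.5% (7.12 to 18.2) against 1.11% (0.510 to 2.40), a difference of 10.4 percentage points (Fisher's exact test, adjusted p = 0.000125). The share of Tpm3-205 differed by the same amount in the other direction, as the shares of 2 isoforms must. These were 2 of the 13 isoforms called among 2572 tested in all genes, 0.505%. Fisher's exact test knows counting error only, and isoform shares were not tested with a dispersion between libraries. In CPM, Tpm3-205 went from 103 to 547, 5.76-fold higher in replicate 2 (exact interval 4.70 to 7.11). Tpm3-201 had 13.4 and 6.15 CPM, a ratio of replicate 1 to replicate 2 of 2.01 whose interval of 0.739 to 6.34 includes 1. The muscle form of Tpm3 thus carried the difference of the gene, and for the short form none was detectable at this depth.

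Exon by exon, the Tpm3 reads gave the same split. Exon 1a opened 123 of 144 deciding reads in replicate 1 (85.4%; Wilson interval 78.7 to 90.3) and 575 of 585 in replicate 2 (98.3%; 96.9 to 99.1). Exon 6b was present in 128 of 143 (89.5%; 83.4 to 93.5) and 582 of 589 (98.8%; 97.6 to 99.4), and exon 9a followed exon 8 in 124 of 145 (85.5%; 78.9 to 90.3) and 580 of 590 (98.3%; 96.9 to 99.1). The intervals of all 3 choices lay apart between libraries. The next choice, from 9a onward to 9b, did not differ in this way, at 120 of 122 reads (98.4%; 94.2 to 99.5) and 556 of 566 (98.2%; 96.8 to 99.0).

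**Figure D3:**
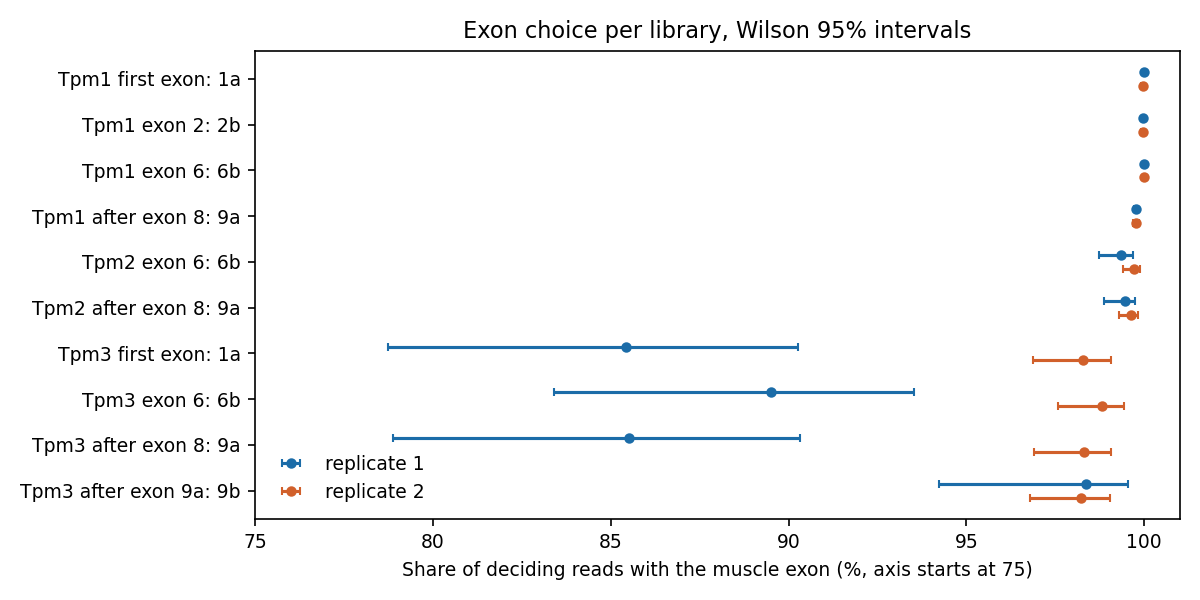
Share of deciding reads, in percent, that used the muscle exon at each choice in Tpm1, Tpm2 and Tpm3, for replicate 1 (blue) and replicate 2 (orange), with Wilson 95% intervals that cover counting error only. The axis starts at 75. The choices of Tpm1 and Tpm2 lie above 99% in both libraries, while 3 of 4 choices of Tpm3 lie between 85.4% and 89.5% in replicate 1 and above 98% in replicate 2.

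Since each long read spans the choices, their combination on single molecules could be counted. Of 143 Tpm3 reads in replicate 1 that decide the first exon, exon 6 and the exon after 8, 122 joined 1a, 6b and 9a, 15 joined 1b, 6a and 9d, and 6 joined 1b, 6b and 9d. In replicate 2 the same combinations had 570, 6 and 3 of 581 reads. No read joined 1a to 9d directly after exon 8. In replicate 2, 1 read joined 1b, 6a and 9a and 1 read joined 1a, 6b and 9b. In all other Tpm3 reads of both libraries 1a went with 9a and 1b with 9d, while exon 6 varied within the short forms. The combination of 1b, 6b and 9d is a 248-codon short form that the annotation used here lacks as a complete model. In Tpm1, 24290 of 24366 reads (99.7%) and 12988 of 13030 (99.7%) joined 1a, 2b, 6b and 9a. In Tpm2, 1186 of 1193 (99.4%) and 2088 of 2095 (99.7%) joined 1a, 6b and 9a.

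The short and long forms of Tpm3 start from separate promoters, and the 250 bases before each RefSeq start on GRCm38.p6 are shown for that reason. Capitals mark every match, on either strand, to an E-box (CANNTG) or to the CArG spacing (CCNNNNNNGG).
Tpm3 upstream of exon 1a: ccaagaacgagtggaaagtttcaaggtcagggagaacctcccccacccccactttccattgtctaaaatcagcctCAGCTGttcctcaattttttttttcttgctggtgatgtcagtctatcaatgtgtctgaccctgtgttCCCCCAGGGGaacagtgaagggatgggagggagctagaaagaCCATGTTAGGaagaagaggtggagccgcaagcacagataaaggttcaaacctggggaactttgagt
Tpm3 upstream of exon 1b: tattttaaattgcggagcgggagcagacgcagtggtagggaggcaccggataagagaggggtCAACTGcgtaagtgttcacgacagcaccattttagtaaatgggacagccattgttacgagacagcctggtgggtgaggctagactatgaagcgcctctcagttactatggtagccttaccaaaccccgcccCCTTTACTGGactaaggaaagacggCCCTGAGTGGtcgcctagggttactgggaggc
The upper stretch is chr3:90072401-90072650 and the lower chr3:90079271-90079520, both on the plus strand. Each holds 1 E-box match and 2 CArG spacing matches, and neither holds the M-CAT letters (CATTCC) or a TATA box (TATAAA). Over all 32851 RefSeq promoters of that length, 66.2% hold an E-box match, 67.1% the CArG spacing, 12.6% M-CAT and 12.4% TATAAA. The stretch before Tpm1 holds 1 M-CAT match, and those before Tpm2 and Tpm4 hold none. The counts of these letters are the same before both first exons of Tpm3.

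The shift of Tpm3 was accompanied by other slow fibre genes. All 7 slow fibre markers were higher in replicate 2 and summed to 640 CPM in replicate 1 and 4870 CPM in replicate 2, with none of them at 0, where 7.06% of all tested genes were higher there. With a common dispersion in edgeR's exact test 5 of the 7 kept the call, and Tnni1 and Myl3 lost it. The slow myosin Myh7 had 164 and 2388 CPM, and slow troponin T, Tnnt1, which binds the tropomyosin overlap, had 189 and 937 CPM. Of the 9 fast fibre markers 5 were higher in replicate 1 and 4 in replicate 2, and with the common dispersion the call left was Myh1, a fast myosin higher in replicate 2 (edgeR's exact test, adjusted p = 0.00266). The part of the fibre mix in the Tpm1, Tpm2 and Tpm3 differences was not tested. Length moved with the library ratio too, as given above, and Tpm1-205, Tpm2-202 and Tpm3-205 have annotated lengths of 1208, 2098 and 1139 bases. Unannotated Tpm2 chains with 9a were modelled to different 3′ ends. A chain spliced from an upstream exon (36 and 48 reads) ended at chr4:43514712 and had 2148 bases. A similar chain with its acceptor moved by 48 bases (6 and 14 reads) ended at chr4:43515682 and had 1226. The length of the Tpm2-202 molecules was therefore not known. The part of length in the Tpm1, Tpm2 and Tpm3 differences was not tested either. Fibroblast markers, 6 genes, summed to 337 and 468 CPM with 1 higher in replicate 1 and 3 in replicate 2, against 4.61% and 7.06% of all tested genes, and none was at 0 in both. None of the 6 was called with the common dispersion.

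**Figure D4:**
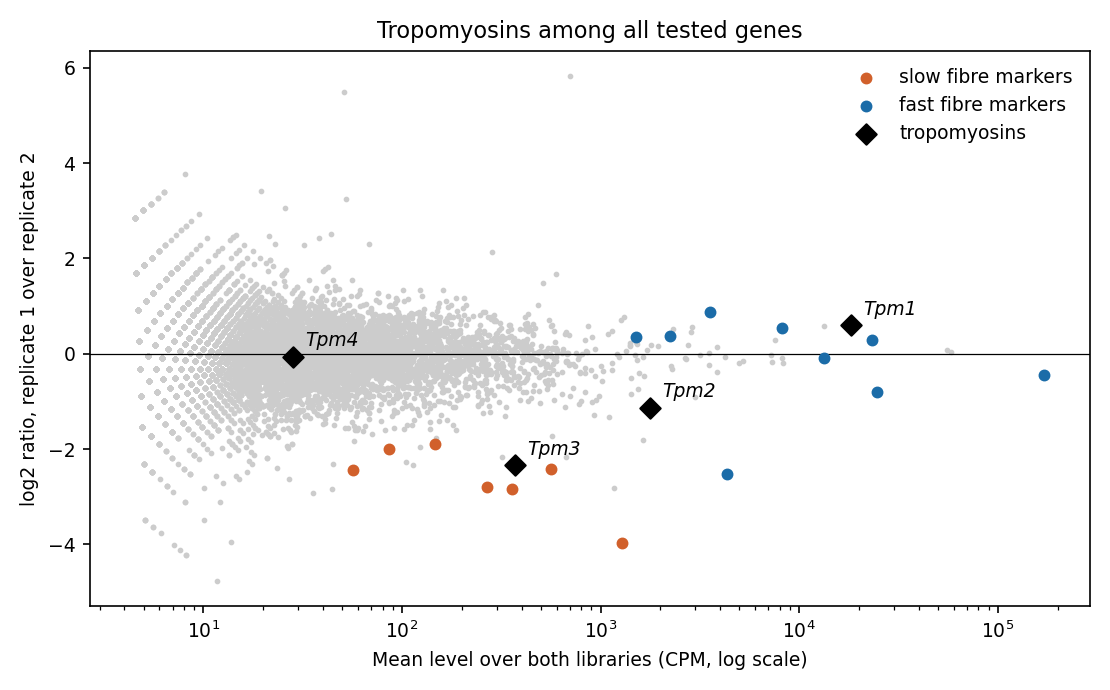
Log2 ratio of replicate 1 over replicate 2 against mean CPM (log scale) for all 8394 tested genes (grey), with tropomyosins (black), slow fibre markers (orange) and fast fibre markers (blue). Tpm3 lies at -2.34 among the slow fibre markers, Tpm1 at 0.59, Tpm2 at -1.13 between Tpm1 and Tpm3, and Tpm4 at -0.07.

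Among the partners of tropomyosin on the thin filament, slow troponin subunits were higher in replicate 2 and fast ones in replicate 1, while most of the other genes were not called. Of 26 genes of actin, troponin, nebulin, tropomodulin, leiomodin and filament turnover, 23 could be tested, 5 were higher in replicate 1, 4 in replicate 2 and 14 were not called, where 11.7% of all tested genes were called. The median log2 ratio was -0.03 against -0.0033 over all tested genes. The remaining 3 of the 9 called genes were Acta1 and Tmod4, the tropomodulin of skeletal muscle, higher in replicate 1, and Neb, nebulin, higher in replicate 2. The 3 called genes furthest from equal were the slow subunits of troponin. Tnnc1, the slow calcium sensor, had 93.9 and 620 CPM and was 7.15-fold higher in replicate 2 (exact interval 5.80 to 8.88; exact binomial test, adjusted p = 5.53e-109). Tnnt1 was 5.37-fold higher (4.62 to 6.27; exact binomial test, adjusted p = 1.01e-137) and the slow inhibitory subunit Tnni1 4.02-fold higher (2.82 to 5.86; exact binomial test, adjusted p = 1.71e-15). Their fast counterparts Tnnt3, Tnni2 and Tnnc2 were higher in replicate 1 by 1.29-fold, 1.83-fold and 1.23-fold. With dispersion in edgeR's exact test, Tnnt1 (adjusted p = 0.00681) and Tnnc1 (adjusted p = 0.000698) were the calls left among the 23. Skeletal actin Acta1 had 59373 and 51587 CPM, so the tropomyosin family had 40.3 reads per 100 Acta1 reads in replicate 1 and 32.6 in replicate 2. Cardiac troponin I, Tnni3, was at 0 in both libraries, which allows up to 3 reads in each.

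Splicing regulators that are known to act on tropomyosin or other muscle exons were measured next. Of 20 genes, 16 could be tested, 1 was higher in replicate 1, 2 in replicate 2 and 13 were not called, where 11.7% of all tested genes were called, with a median log2 ratio of 0.24. Mbnl2, a muscleblind protein, had 206 and 298 CPM and was 1.57-fold higher in replicate 2 (exact binomial test, adjusted p = 9.33e-06), and Qk, the quaking protein, had 220 and 343 CPM and was 1.69-fold higher there (exact binomial test, adjusted p = 1.67e-08). Celf2 had 84.1 and 38.9 CPM and was 1.99-fold higher in replicate 1 (exact binomial test, adjusted p = 0.00349). Ptbp1, the polypyrimidine tract protein that represses muscle exons of tropomyosin in non-muscle cells, had 3 reads in each library, at the floor. In the same list Ptbp2 had 16 and 9 reads and Raver1 15 and 9, neither of them called, and Ptbp3 had 0 and 2. The epithelial regulators Esrp1 and Esrp2 were at 0 in both. With dispersion in edgeR's exact test, none of the 16 was called.

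Tpm4, whose short protein is known from platelets, fibroblasts and other non-muscle cells, was the only member with no striated muscle form. Its 32 and 27 reads all followed 1b, 6, 9d, without a shortened or unannotated chain, which at this depth allows other chains a share of up to 10.7% and 12.5% (Wilson upper limits). Markers of cells other than muscle fibres were low beside those of fast fibres. The 5 endothelial markers summed to 76.0 and 57.4 CPM, the 5 macrophage markers to 46.5 and 13.3, the 8 erythroid and platelet markers to 232 and 139, the 4 nerve markers to 58.1 and 24.6 and the 4 cardiac markers to 0.895 and 5.12. Cd68, Ppbp, Nppa and Tnni3 were at 0 in both libraries. The log2 ratio of Tpm4 was -0.07, and which cells its reads came from was not tested.

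Most spliced molecules of the muscle isoforms were read from their first exon. Unspliced reads were not counted. At the 3′ end of the genes they included 82 Tpm1 reads in replicate 1 and 49 in replicate 2. In Tpm2 they included models of 23 and 12 reads in replicate 1 and of 35 and 40 in replicate 2. Among reads whose introns form the 3′ part of Tpm1-205, 97.1% in replicate 1 (24067 of 24788) and 97.2% in replicate 2 (12841 of 13214) ran through to exon 1a. For Tpm2-202 the share was 93.7% (1124 of 1200) and 93.8% (1995 of 2126), and for the Tpm3-205 chain it was 99.1% (115 of 116) and 99.1% (534 of 539). The Wilson intervals of the libraries overlapped in each of the 3, although the levels of all 3 genes differed. By reads summed over both libraries, the leading shortened Tpm1 chain began in exon 5 and had 162 and 82 reads. That of Tpm2 began in exon 2b with 17 and 36 reads. The leading Tpm3 chain of this class, with 0 and 11 reads, kept 1a to 9a and lacked the splice from 9a to 9b. As modelled, its last exon ran from the start of 9a through the intron to the end of 9b at chr3:90092130. It thus lacked an intron of Tpm3-205 but was longer, at 1978 bases against 1139. Annotated models carry annotated ends, so transcription start sites cannot be read from them.

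**Figure D5:**
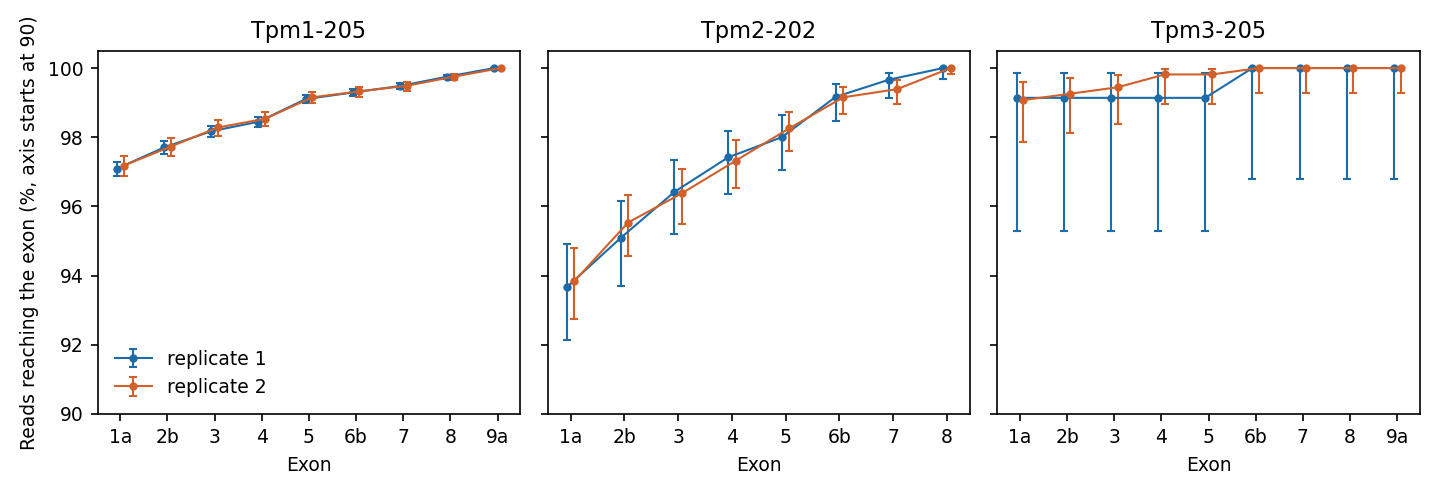
Percent of spliced reads of the Tpm1-205, Tpm2-202 and Tpm3-205 chains whose introns run back to each exon or beyond it, counted from the 3′ end. The Tpm2 reads counted as starting at exon 4 (12 and 20) and at exon 5 (7 and 20) retain introns. As modelled, they begin within exon 3. Replicate 1 is blue and replicate 2 orange, with Wilson 95% intervals, and the axis starts at 90. The intervals of the 2 libraries overlap at every exon, and Tpm2-202, with the longest annotated last exon of the 3, falls to 93.7% and 93.8% at exon 1a.

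Unannotated spliced chains that are not classed as shortened forms of annotated ones made up a small part of each gene. Tpm1 had 99 such chains with 312 and 197 reads, of which 24 were seen in both libraries and 64 rested on a single read. In 44 of the 99 chains every unannotated splice site lay within 10 bases of an annotated site, and these 44 took 236 and 165 of the reads. The open frame from the annotated start could be followed in 59 of the 99 chains, and in 55 of these it did not end at 248 or 284 codons. Tpm2 had 23 such chains with 64 and 99 reads, and Tpm4 had none. Tpm3 had 22, with 14 of the 146 reads of the gene in replicate 1 and 38 of 596 in replicate 2. The class does not ensure full length: a Tpm1 chain of 1 read, for example, had 3 exons and 379 bases.

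Unannotated chains were ranked by the lower of their CPM in the 2 libraries, so that a chain had to be seen in both. The leading Tpm1 chain by this rule skipped the first 2 bases of exon 4 and otherwise matched Tpm1-205, with 141 reads in replicate 1 and 102 in replicate 2. The first 30 bases of exon 4 are shown for the 4 genes, because all open with the same letters, in capitals, with which introns also end.
Tpm1 exon 4: AGgcatgaaagtcattgaaagccgagccca
Tpm2 exon 4: AGgaatgaaggtcattgaaaaccgggccat
Tpm3 exon 4: AGgtatgaaggtgattgaaaatcgggctct
Tpm4 exon 4: AGgcatgaaggtaatagagaaccgagccat
These are at chr9:67033964-67033993 and chr4:43519477-43519506 on the minus strand and chr3:90087455-90087484 and chr8:72143450-72143479 on the plus strand. Counted over all Tpm1 chains, 151 of 24669 junctions out of exon 3 used the site 2 bases further in replicate 1 (0.612%; Wilson interval 0.522 to 0.717) and 107 of 13183 in replicate 2 (0.812%; 0.672 to 0.980). For Tpm2 it was 2 of 1229 (0.163%; 0.0446 to 0.591) and 8 of 2161 (0.370%; 0.188 to 0.729), for Tpm3 2 of 144 and 0 of 585, and for Tpm4 0 of 32 and 0 of 27. The shift leaves a frame of 129 codons in place of 284. The exon 4 counts of Tpm2, Tpm3 and Tpm4 were taken after those of Tpm1 were seen. Whether these reads were spliced so or aligned so was not tested.

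The next Tpm1 chains by the same rule had sites moved by 7 bases at exon 3 (14 and 12 reads, 124 codons) and by 4 bases at the end of exon 1a (7 and 8 reads, 83 codons). Chains with 5 bases moved at exon 9b (17 and 6 reads) and at exon 9a (12 and 6 reads) had more reads in sum than the latter. In 5 of the 99 Tpm1 chains the deposited class differed between libraries for the same introns. A chain chosen after its values were seen held a 95-base exon in place of 9a, with 11 and 3 reads and a frame of 268 codons.

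Tpm2 molecules sometimes began upstream of the annotated start of its main form. Among reads with the splice donor of exon 1a, 56 of 1195 in replicate 1 (4.69%; Wilson interval 3.63 to 6.04) and 80 of 2102 in replicate 2 (3.81%; 3.07 to 4.71) were spliced to it from an upstream exon. The leading chain, with 36 and 48 reads, joined the 65-base exon at chr4:43523701-43523765, which the annotation holds as the untranslated first exon of Tpm2-206, to all exons of Tpm2-202. The next chains were rarer, with 6 and 14 reads, where the acceptor was moved by 48 bases, and 5 and 5 reads, where the donor was moved by 15 bases. The first of the 3 and the chain with the moved acceptor keep the 284-codon frame, so these reads differ from Tpm2-202 in the leader and not in the protein.

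In Tpm3, the 3 leading unannotated chains by the rule on the lower CPM were the short form of 1b, 6b and 9d (6 and 3 reads), a long form that runs from 9a into 9d (2 and 9 reads), and a long form with 9a extended from 79 to 119 bases (2 and 2 reads). A chain with exon 8 shortened by 4 bases had more reads than the last of these, 0 and 5, all in replicate 2. The long form with 9a and 9d keeps the 284 codons of Tpm3-205. Exon 9d of Tpm3 opens with the letters ataa, as printed above, so a frame that leaves exon 9a meets the same stop codon there as it does in 9b. In Tpm1, the same join of 9a to 9d, seen in 1 and 1 reads, gives 294 codons.

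Reads could also be drawn away by copies. Of the annotated genes that share at least 10% of their 21-base words with a tropomyosin, Tpm3-rs7, an unspliced copy that shares 84.6% with Tpm3, had 3 and 3 reads. The other 8, 7 of them resembling Tpm3 and Gm7809 resembling Tpm4, had 0 in both. Both annotated Tpm3 isoforms with reads cross introns that this copy lacks.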

How the data were processed

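Per the labels, RNA of gastrocnemius was read as long reads in 2 libraries of 1 group. The deposited tables hold raw read counts per transcript model, made by the authors with a pipeline whose added models are named by TALON in the deposited annotations; the deposited columns of exon number and length are other values of each model. Per the file headers the assembly is mm10 and the annotation GENCODE M21. Neither the aligner nor any filter or version is stated in the labels or headers. Reads of both parental alleles were counted together.

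The 4 genes, gene lists and tests were chosen with earlier results of these data known. Rows of annotated genes with the symbols Tpm1 to Tpm4 were taken, and models of the libraries were joined by intron chain. Exons were matched by exact splice sites. Genes with a summed count of 10 or more entered a 2-sided exact binomial test on TMM effective library sizes (factors 1.04 and 0.961; edgeR 4.0.16, R 4.3.3), Benjamini-Hochberg adjusted over 8394 genes at 0.05. Isoform shares were compared by Fisher's exact test over 2572 isoforms of genes with at least 20 annotated-isoform reads per library. Intervals cover counting error only. With 1 library a side, edgeR's quasi-likelihood test could not be fitted. Alternatives were DESeq2 1.42.0 size factors, no TMM, other class, filter and exon rules, and edgeR's exact test with a common dispersion of 0.0622. This dispersion was estimated from the 2 compared libraries taken as 1 group. The procedures were tested on simulated counts drawn without spread between libraries, so this could not show how the tests behave under such spread. The gene test called 125 of 200 genes changed 2-fold and 8 unchanged ones. The isoform test called 187 of 200 isoforms shifted by 30 points and 4 unchanged ones. Text names the 4 genes, isoforms with at least 10 reads, the 3 unannotated chains per gene with the highest lower CPM of the 2 libraries, the leading shortened chain, and list members among the 3 furthest called. Other list members named in the text fall outside this rule. Python 3.11.15, numpy 2.4.6, pandas 2.3.3 and scipy 1.17.1 were used.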

Additional observations from a re-analysis of the deposited data

Results flagged for a closer look

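A signal outside the comparisons of the tropomyosin genes was an unannotated single-exon model on the plus strand over Tpm1, opposite to the gene, at chr9:67023441-67026826. It had 16 reads in replicate 1 and 10 reads in replicate 2, above the 3 reads that a count of 0 allows. It is 3386 bases long, and its first position is the base at which exon 9d of Tpm1 begins on the other strand. All 4 antisense models over Tpm1 together had 23 reads in replicate 1 and 16 in replicate 2, against 25254 and 13483 reads of Tpm1 itself. Whether these reads are transcripts of the other strand was not tested.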

How the results depend on the processing

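Of 119 values recomputed under alternatives, 104 kept their direction and call or, with no test, moved by less than their spread. Each tested isoform share difference was recomputed under 2 alternatives, and all 12 values kept direction and call. Their size did not always hold when unannotated spliced chains, shortened ones left out, joined the annotated isoforms in the denominator. Tpm1-205 then went from 0.00047 to 0.231 percentage points and Tpm2-202 from -0.369 to -0.987, both uncalled, and Tpm3-205 from -10.4 to -12.5. With a common dispersion in edgeR's exact test, Tpm1 (log2 0.594) and Tpm2 (log2 -1.13) lost their calls, and 24 genes were called in place of 980. The ratio of Tpm4, called under no setting, changed sign without TMM (log2 0.0488). Mean CPM moved for Tpm1 to 28056 with annotated isoforms only, and for Tpm4 to 45.8 with those, to 32.8 with shortened and genomic models left out and to 26.9 over all reads, because the denominators change. With annotated isoforms only, exon 9a after exon 8 of Tpm1 went to 99.902%, exon 2b to 99.9759%, exon 9b after 9a of Tpm3 to 100% and the leader of Tpm2 to 0%, since the chains that differ are then left out. With exons matched by overlap in place of exact splice sites, 9a of Tpm1 went to 99.8373%, 2b to 99.9586% and 9a of Tpm2 to 95.2%. The annotated last exon of Tpm2-202 includes a long untranslated end. A single library in place of the mean moved no value by more than its SD, as 2 values must. No paired analysis was possible because there is 1 group. Depth limits the minor isoforms, most of which rest on under 10 reads a library.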
